A study of Mus musculus with 11 samples.

Results

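Integrins are the adhesion receptors of the cell surface, and each is a pair of 1 alpha and 1 beta chain. The genes described here are 10 chains known in T cells, taken as a list of names: the alpha chains Itgae, Itga4, Itga6, Itgal and Itgav, and the beta chains Itgb1, Itgb2, Itgb3, Itgb7 and Itgb8. All 10 were on the array, with 27 probe sets among the 34945 that carried a single gene symbol, and they were 10 of the 18193 genes tested. For a gene with several probe sets the value given is that of its brightest probe set, by the mean of all 11 arrays, and the other probe sets are described beside it. Levels are deposited log2 values, on which a difference of 1 is a doubling of the signal.

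A chain reaches the cell surface only with a partner, and partners decide what the pair binds. Itgae (CD103) pairs with Itgb7 and holds lymphocytes to E-cadherin on epithelium. Itga4 pairs with Itgb1 to bind VCAM-1 and fibronectin, or with Itgb7 to bind MAdCAM-1 of gut vessels. Itga6 with Itgb1 binds laminin, and Itgal with Itgb2 forms LFA-1, which binds ICAMs. Itgav has several beta partners, among them Itgb1, Itgb3 and Itgb8. The pair of Itgav and Itgb8 releases active TGF-beta from its latent complex and is known from regulatory T cells, the Foxp3-positive T cells that restrain immune responses.

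The arrays held RNA of CD4+ T cells from spleen and lymph node of mice aged 6 to 8 weeks. The GFPKO group (n = 3) was of GFP+ cells from Foxp3GFPKO/WT mice, which carry 1 null allele that reports its transcription by GFP beside 1 wild-type allele. Foxp3 lies on the X chromosome, so a cell of such a mouse uses either allele, and GFP marks cells using the null one while the mouse still has regulatory T cells from the other. The Treg group (n = 5) was of Foxp3-positive cells and the TN group (n = 3) of naive Foxp3-negative cells, both CD4+. The labels name GFP as a sorting marker but do not say which reporter allele the mice of these last groups carried, nor whether each array of a group is of another mouse. The p-values therefore reflect only how far these samples lie apart, which may be technical, and precision is limited by the number of arrays.

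The labels were checked first. The Foxp3 probe set read 6.75, 7.19 and 6.86 in GFPKO, against 3.34, 3.64, 3.62, 3.29 and 3.48 in Treg and 3.99, 3.33 and 3.12 in TN. Its low signal in the arrays labelled Treg goes against their label, so that "Treg" below always means the arrays so labelled, and every direction given for Treg depends on the label being right. Where this probe set lies relative to the changed part of the null allele is not known here. Of 11 measured regulatory T cell markers, 10 were higher in Treg than in TN and 11 higher in GFPKO than in TN. In GFPKO minus Treg 1, Foxp3 itself, was higher and 7 were lower. The summed linear signal of the 11 was 10970 to 11567 in GFPKO, 18051 to 19931 in Treg and 2318 to 2587 in TN. All 10 measured CD4 T cell markers were above background in each group. The highest Foxp3 value in TN, 3.99, served as the background level. Xist read 11.07 to 11.85 in GFPKO, against 3.49 to 3.96 in Treg and 3.72 to 3.84 in TN, and the 3 measured Y-linked genes were lower in GFPKO than in either, so sex and genotype cannot be told apart in any comparison with GFPKO. Correlations between arrays of a group were 0.979 to 0.990 in GFPKO, 0.990 to 0.997 in Treg and 0.994 to 0.995 in TN. The actin control read higher at its 3′ than at its 5′ end by 0.770, 0.832 and 0.451 in GFPKO, against 0.442 to 0.611 in Treg and 0.381 to 0.526 in TN, so GFPKO replicates 1 and 2 lay above every other array on this measure of RNA integrity.

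Promoter sequence was at hand for 5 of the 10 chains (Itgb8, Itgb1, Itgb7, Itga4 and Itgav), from RefSeq on build GRCm38.p6, running from 250 bases before to 50 bases after the gene start. Those of Itgb8 and Itgav are shown because the chains form 1 receptor and read differently over the groups. That of Itga4 is shown because every GFPKO array of this chain lay above all Treg and TN arrays. Itgb8 lies at chr12:119238227-119238526 on the minus strand, Itgav at chr2:83724147-83724446 and Itga4 at chr2:79255176-79255475, both on the plus strand. Each sequence runs 5′ to 3′ along the gene, and capitals mark matches, on either strand, to 4 short motifs: the forkhead motif TGTTTNC, the RUNX motif TGTGG, the ETS motif GGAAG and the GC box GGGCGG.
Itgb8: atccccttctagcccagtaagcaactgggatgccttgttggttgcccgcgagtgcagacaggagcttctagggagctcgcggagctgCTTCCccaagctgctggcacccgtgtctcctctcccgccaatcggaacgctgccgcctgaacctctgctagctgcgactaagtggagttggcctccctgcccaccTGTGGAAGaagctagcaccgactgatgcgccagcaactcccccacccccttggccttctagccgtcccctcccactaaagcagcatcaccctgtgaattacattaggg
Itgav: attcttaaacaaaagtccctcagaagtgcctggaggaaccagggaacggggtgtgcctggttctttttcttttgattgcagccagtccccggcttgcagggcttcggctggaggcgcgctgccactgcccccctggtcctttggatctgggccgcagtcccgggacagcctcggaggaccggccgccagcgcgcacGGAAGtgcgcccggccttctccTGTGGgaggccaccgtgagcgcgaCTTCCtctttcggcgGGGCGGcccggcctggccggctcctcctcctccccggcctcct
Itga4: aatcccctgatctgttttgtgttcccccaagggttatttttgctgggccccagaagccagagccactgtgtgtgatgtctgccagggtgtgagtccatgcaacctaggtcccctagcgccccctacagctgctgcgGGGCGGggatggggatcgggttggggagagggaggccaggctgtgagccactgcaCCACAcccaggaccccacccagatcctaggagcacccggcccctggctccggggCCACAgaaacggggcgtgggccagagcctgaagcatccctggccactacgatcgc
In the Itgb8 promoter the RUNX match and 1 of the 2 ETS matches overlap, at bases 193 and 196 of the window. Itgav held 1 RUNX, 2 ETS and 1 GC box match, and Itga4 held 2 RUNX matches, 1 GC box and 0 ETS matches. Itgb1 and Itgb7 each held 1 RUNX and 2 ETS matches, and Itgb1 also had 1 GC box. The forkhead motif had 0 matches in the 5 promoters. Among 32851 promoters of the same length, 55.93% held the RUNX motif, 71.41% the ETS motif, 35.66% the GC box and 20.49% the forkhead motif, so a match to the first 2 is common. The GC content was 60.67% for Itgb8, 67.33% for Itgav and 64.33% for Itga4, against a median of 52.67% over all promoters.

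Against naive cells, the arrays labelled Treg were higher in Itgae and Itgb8 and lower in Itgb3, and the other 7 chains were not called. GFPKO was higher than TN in Itgae, Itga4 and Itgav, with 0 chains lower (2 at an unadjusted p under 0.05). GFPKO was higher than Treg in Itgb3 and Itga4 and lower in Itgae, Itgb8 and Itgb1. Calls are at an adjusted p under 0.05 in limma, with Benjamini-Hochberg adjustment over all 18193 genes, and the 3 comparisons share their arrays. The called share of the chains was 30% for Treg minus TN, where 9.97% of all genes were called (6.54% higher and 3.42% lower). It was 30% for GFPKO minus TN, against 5.66% of all genes (2.64% higher and 3.02% lower), and 50% for GFPKO minus Treg, against 9.43% (2.55% higher and 6.88% lower). The median difference over the 10 chains was 0.25, 0.42 and 0.05 in these comparisons, where that over all genes was 0.03, -0.04 and -0.08. The arrays of the groups did not overlap for 5, 6 and 5 chains, against 19.5%, 18.0% and 14.4% of all genes.

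The count of 3 chains higher in GFPKO than in TN depended on single arrays. It was 1 (Itgae) on leaving out any 1 TN array, GFPKO replicate 1 or GFPKO replicate 2, and 4 without GFPKO replicate 3. Without GFPKO replicates 1 and 2 together, GFPKO is a single array whose spread is assumed to be that of the other groups, so that calls can be lost for want of arrays alone. The count was then 1, and GFPKO minus Treg had 1 higher chain (Itgb3) of its 2. The count of 2 chains higher in Treg than in TN was 4 on leaving out GFPKO replicate 1 or 3, and 5 without replicates 1 and 2 together. The balance of all called genes moved with the scaling. For Treg minus TN it was 1190 higher and 623 lower as deposited and 904 and 1174 with arrays centred on their median, which moved the median gene from 0.03 to -0.11. For GFPKO minus Treg it was 464 higher and 1252 lower as deposited, 899 and 675 when centred (median gene -0.08 and 0.09) and 656 and 922 when quantile normalisation was repeated. The chains called for Treg minus TN and for GFPKO minus Treg were the same ones when the arrays were centred, while in GFPKO minus TN centring lost the call of Itga4 (adjusted p = 0.058) and added that of Itgb3 as lower (-0.57, adjusted p = 0.038). A lower value in sorted cells can mean fewer cells that express the gene or less RNA per cell, which cannot be told apart here.

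**Figure D1:**
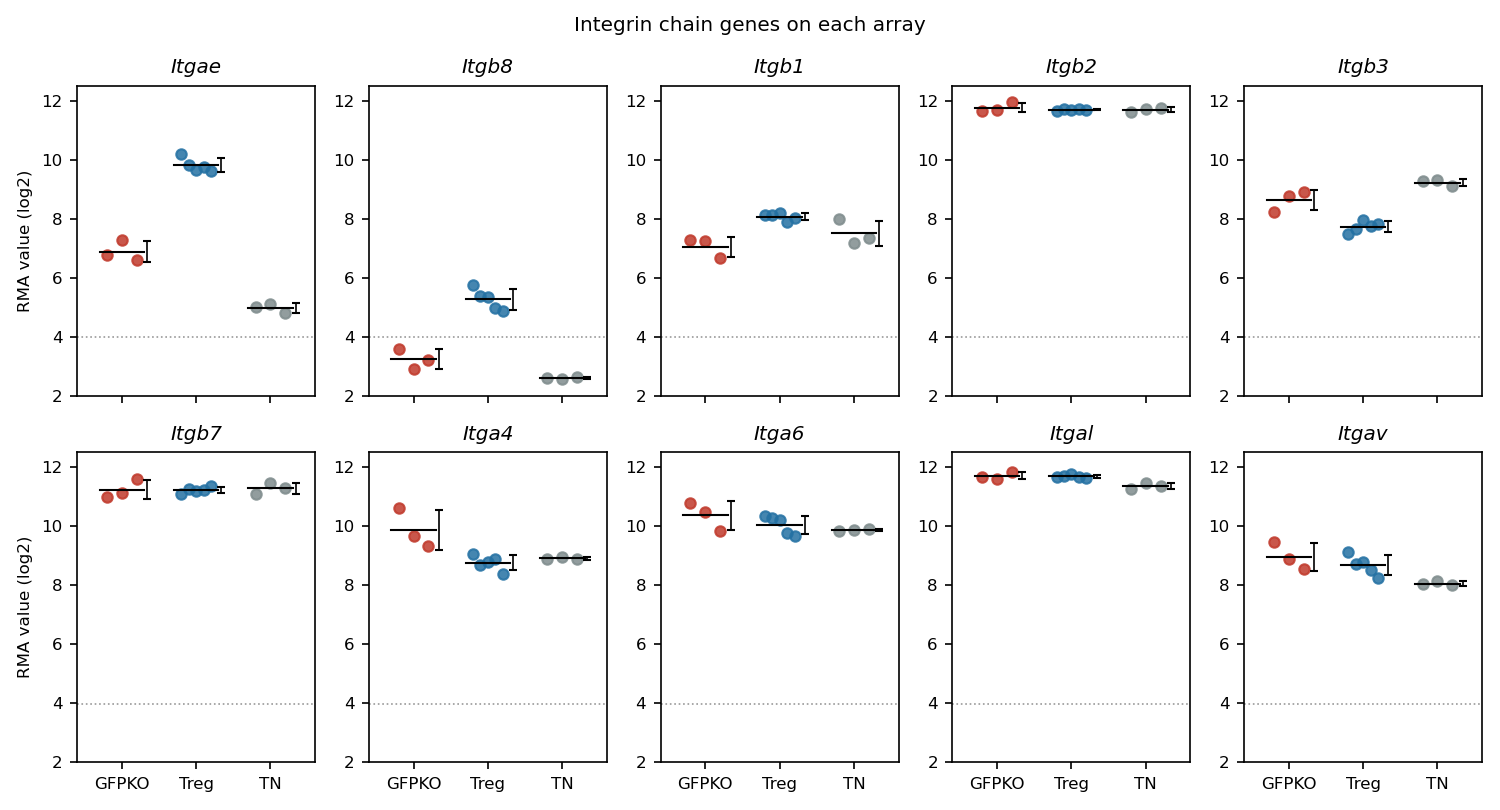
Deposited log2 (RMA) value of each of the 10 integrin chains (1 panel per gene) in every array, by group (GFPKO n = 3, Treg n = 5, TN n = 3). Points are arrays, horizontal bars are group means, brackets are 1 SD either way and the dotted line is the background level of 3.99; Itgae runs from 4.80 in a TN array to 10.21 in a Treg array, while Itgb2 stays between 11.62 and 11.95.

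Itgae, the chain that binds E-cadherin with Itgb7, spread most widely over the arrays. It read 6.78, 7.28 and 6.62 in GFPKO, against 10.21, 9.84, 9.65, 9.76 and 9.63 in Treg and 5.03, 5.11 and 4.80 in TN. The 3 groups did not overlap, with Treg highest, GFPKO between and TN lowest. Treg exceeded TN 28.5-fold (log2 difference 4.83 ± 0.17 SE, limma adjusted p = 7.6e-11). GFPKO exceeded TN 3.76-fold (1.91 ± 0.19, adjusted p = 8.4e-06) and was 7.58-fold below Treg (-2.92 ± 0.17, adjusted p = 3.5e-08). Both neighbouring pairs in this order thus differed beyond their spread. The second Itgae probe set, 1449216_at, read 5.02, 5.71 and 5.33 in GFPKO, against 8.78, 8.64, 8.45, 8.46 and 8.49 in Treg and 4.0, 3.94 and 4.36 in TN. No groups overlapped, and it gave the same order, with Treg minus TN at 4.47, GFPKO minus TN at 1.26 and GFPKO minus Treg at -3.21, all called (adjusted p = 3.4e-10, 5.8e-04 and 3.8e-08). In this fit of all 34945 probe sets, 7.99%, 4.07% and 8.60% were called in the 3 comparisons.

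Itgb7, the partner of Itgae and an alternative partner of Itga4, did not follow it. Its only probe set read 10.98, 11.13 and 11.60 in GFPKO, against 11.09, 11.26, 11.19, 11.21 and 11.36 in Treg and 11.08, 11.46 and 11.28 in TN. The groups overlapped in every pairing. Treg minus TN was -0.05 (95% interval -0.36 to 0.26, adjusted p = 0.91), GFPKO minus TN was -0.04 (-0.39 to 0.31, adjusted p = 0.95) and GFPKO minus Treg was 0.01 (-0.30 to 0.32, adjusted p = 0.98). A difference of the size seen for Itgae lies outside each interval.

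Itgb8, the beta chain that with Itgav activates TGF-beta, was above background in the Treg arrays alone. Its only probe set read 3.59, 2.93 and 3.24 in GFPKO, against 5.76, 5.39, 5.37, 5.00 and 4.87 in Treg and 2.61, 2.59 and 2.64 in TN. No GFPKO or TN array reached the lowest Treg array. Treg was at least 2.43-fold higher than TN, taking TN at the background level (fitted difference 2.66 ± 0.19 SE, adjusted p = 1.1e-07). GFPKO was at least 2.43-fold lower than Treg by the same bound (-2.02 ± 0.19, adjusted p = 6.7e-06). GFPKO and TN were both at or below background, so no fold is given for them, and their values did not differ by the test (adjusted p = 0.1).

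Itgav, the alpha partner of Itgb8, read 9.44, 8.88 and 8.53 in GFPKO, against 9.12, 8.73, 8.78, 8.53 and 8.25 in Treg and 8.04, 8.13 and 7.99 in TN. Every GFPKO and every Treg array lay above every TN array, and GFPKO and Treg overlapped. GFPKO exceeded TN 1.86-fold (0.90 ± 0.23 SE, adjusted p = 0.028). The difference of Treg minus TN was 0.63 ± 0.20 (95% interval 0.20 to 1.06) and was not called (adjusted p = 0.067). GFPKO minus Treg was 0.27 (-0.16 to 0.70, adjusted p = 0.47). The call against TN was lost on leaving out any 1 TN array, GFPKO replicate 1 or GFPKO replicate 2 (adjusted p between 0.072 and 0.1), and the difference was 0.48 without both of these GFPKO arrays. With the actin 3′ minus 5′ value as a covariate it was 0.60 (adjusted p = 0.37). Treg minus TN was called on leaving out Treg replicate 5 (0.74, adjusted p = 0.028), GFPKO replicate 1 (adjusted p = 0.018) or GFPKO replicate 3 (adjusted p = 0.031). Of its 5 probe sets 2 were above background, and the second, 1432296_a_at, differed by 0.09, 0.05 and -0.04 in Treg minus TN, GFPKO minus TN and GFPKO minus Treg, none called.

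Itgb3, another partner of Itgav and the beta chain of the vitronectin receptor, ran the other way, lowest in Treg. It read 8.25, 8.78 and 8.90 in GFPKO, against 7.49, 7.67, 7.95, 7.77 and 7.83 in Treg and 9.29, 9.31 and 9.10 in TN. The 3 groups did not overlap. Treg was 2.81-fold below TN (-1.49 ± 0.15 SE, adjusted p = 6.2e-06), and GFPKO exceeded Treg 1.87-fold (0.90 ± 0.15, adjusted p = 0.0016). GFPKO minus TN was -0.59 ± 0.17 and not called (adjusted p = 0.061), but was called without GFPKO replicate 3 (-0.72, adjusted p = 0.019). The second probe set, 1421511_at, placed GFPKO beside Treg instead. It read 4.58, 4.62 and 4.87 in GFPKO, against 4.65, 4.79, 4.81, 4.76 and 4.87 in Treg and 5.67, 5.31 and 5.29 in TN. Here every TN array was above all others, with Treg minus TN at -0.65 (adjusted p = 0.0037), GFPKO minus TN at -0.73 (adjusted p = 0.0067) and GFPKO minus Treg at -0.09 (adjusted p = 0.75). Both probe sets thus gave Treg below TN, and they disagreed on GFPKO against Treg.

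**Figure D2:**
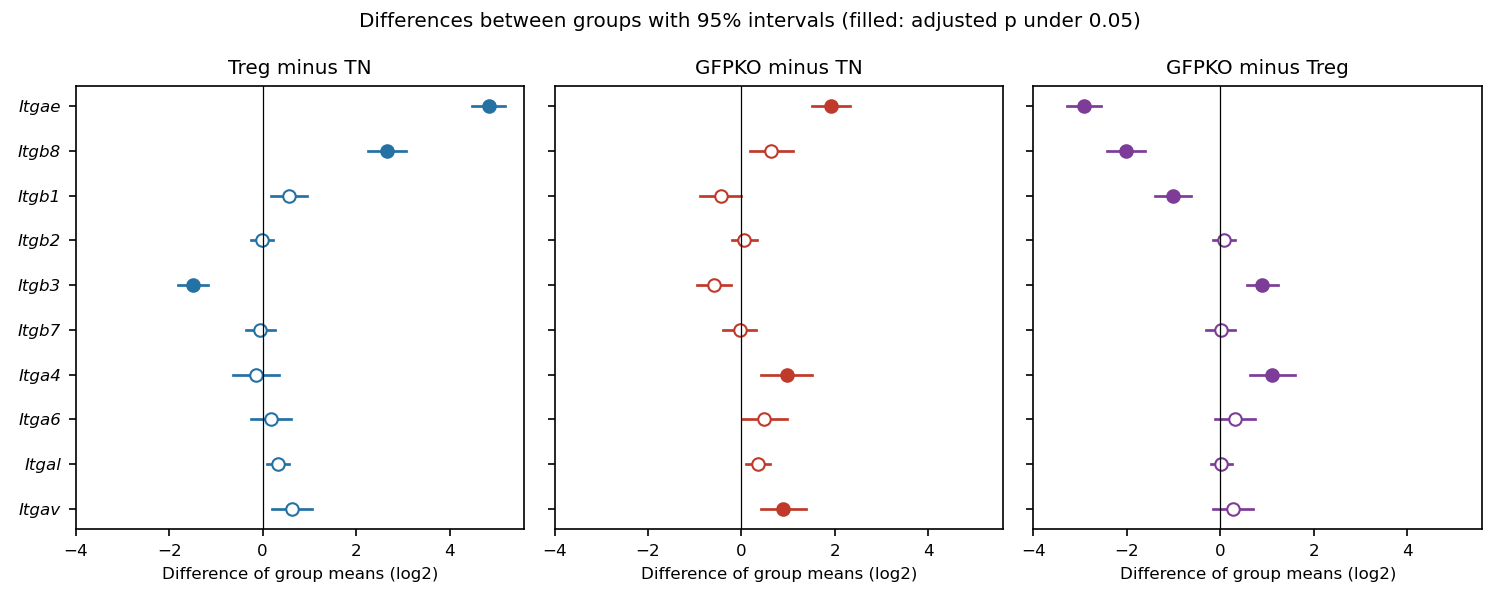
Difference of group means on the log2 scale for each integrin chain in the 3 comparisons (Treg minus TN, GFPKO minus TN, GFPKO minus Treg), from limma over 11 arrays. Points are estimates, bars are 95% intervals and filled points have an adjusted p under 0.05; Itgae reaches 4.83 and Itgb8 2.66 in Treg minus TN, and Itgb3 falls to -1.49.

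Itgb1 is the shared beta chain of the receptors for fibronectin, VCAM-1, laminin and collagen. It read 7.27, 7.25 and 6.68 in GFPKO, against 8.14, 8.13, 8.20, 7.89 and 8.02 in Treg and 7.98, 7.19 and 7.36 in TN. Every GFPKO array lay below every Treg array, while TN overlapped both. GFPKO was 2.01-fold below Treg (-1.01 ± 0.18 SE, adjusted p = 0.0024). Treg minus TN was 0.56 ± 0.18 (95% interval 0.18 to 0.95, adjusted p = 0.067), and was called without TN replicate 1, the TN array with the highest value (0.80, adjusted p = 0.0086), or without GFPKO replicate 1 or 3 (adjusted p = 0.045 and 0.029). GFPKO minus TN was -0.44 ± 0.20 (-0.88 to -0.01, adjusted p = 0.28), so neither neighbour of TN in the order differed from it by the test. Of the 6 Itgb1 probe sets 3 were above background. For GFPKO minus Treg the others of these gave -0.83 for 1452545_a_at (adjusted p = 0.014) and -0.59 for 1427771_x_at (adjusted p = 0.074).

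Itga4, the alpha chain of the VCAM-1 and MAdCAM-1 receptors, was highest in GFPKO. It read 10.62, 9.67 and 9.33 in GFPKO, against 9.06, 8.69, 8.77, 8.90 and 8.39 in Treg and 8.88, 8.96 and 8.88 in TN. Every GFPKO array lay above all others, and Treg and TN overlapped. GFPKO exceeded Treg 2.16-fold (1.11 ± 0.23 SE, adjusted p = 0.0058) and TN 1.96-fold (0.97 ± 0.25, adjusted p = 0.036), whereas Treg minus TN was -0.14 (-0.63 to 0.34, adjusted p = 0.81). GFPKO replicate 1 read highest, and without it GFPKO minus TN was 0.59 (adjusted p = 0.073). That call was also lost on leaving out any 1 TN array, GFPKO replicate 2, or Treg replicate 2, 3 or 4 (adjusted p between 0.051 and 0.12). With GFPKO replicate 3 as the only GFPKO array the differences were 0.43 against TN and 0.57 against Treg, neither called (adjusted p = 0.36 and 0.2). With the actin covariate they were 0.59 (adjusted p = 0.45) and 0.83 (adjusted p = 0.069).

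In the fit of all probe sets the brightest Itga4 probe set was called in GFPKO minus Treg (adjusted p = 0.0084) and not in GFPKO minus TN (adjusted p = 0.052). The other probe sets gave positive differences for GFPKO in both. Probe set 1456498_at read 9.98, 8.79 and 8.76 in GFPKO, against 8.66, 7.70, 6.99, 7.58 and 7.61 in Treg and 7.32, 7.80 and 8.13 in TN. The GFPKO arrays again lay above all others, and GFPKO minus Treg was called (1.47, adjusted p = 0.015) while GFPKO minus TN was at the threshold and not called (1.43, adjusted p = 0.050). For 1421194_at the differences were 0.58 and 0.51, and for 1450155_at 0.36 and 0.64, none called. On both of these GFPKO replicate 3 did not lie above the other groups. Probe set 1421194_at read 6.98, 6.46 and 5.46 in GFPKO, against 5.43 to 5.95 in Treg and 5.48 to 6.12 in TN. Probe set 1450155_at read 4.44, 4.43 and 3.65 in GFPKO, against 3.58 to 3.96 in Treg and 3.28 to 3.77 in TN.

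**Figure D3:**
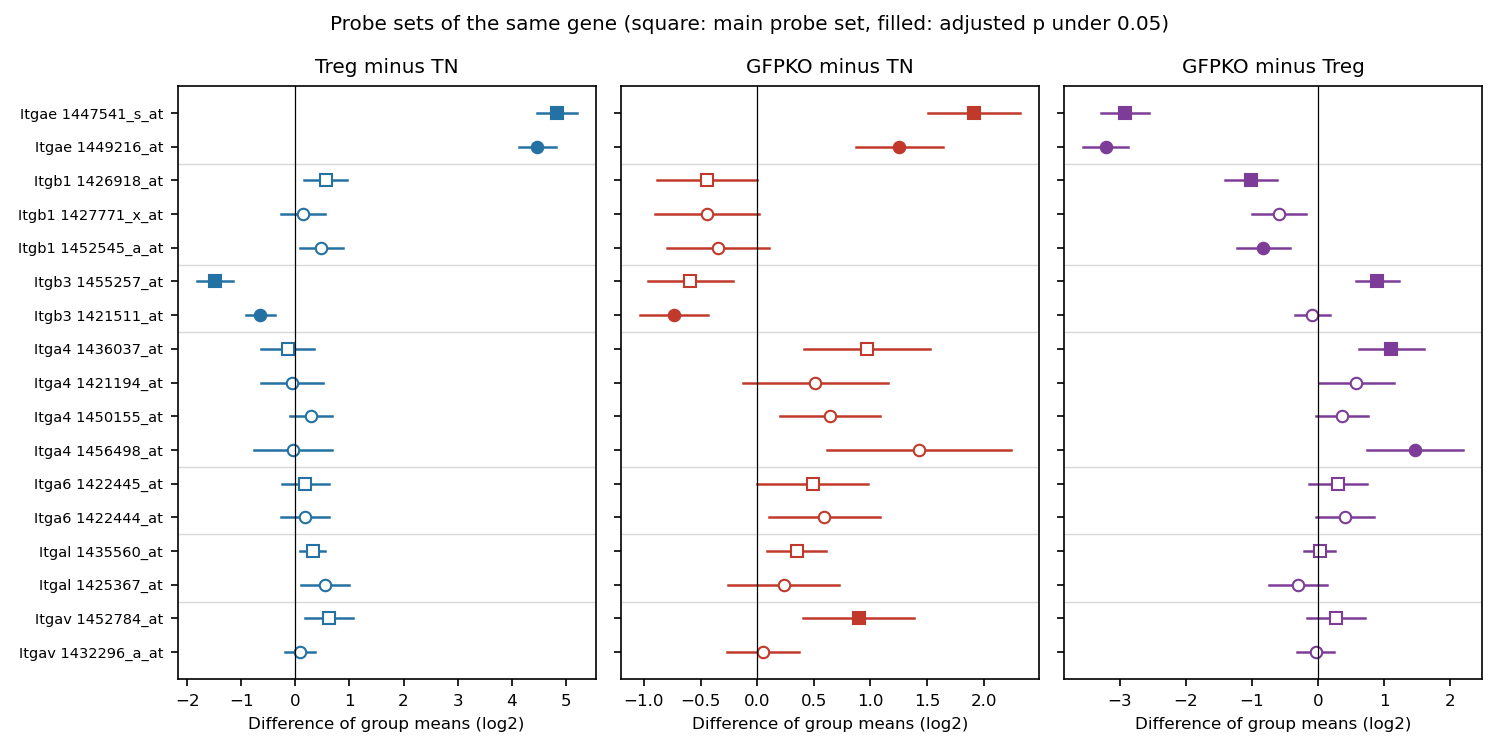
Difference of group means on the log2 scale for each probe set above background of the 7 chains with several such probe sets, in the 3 comparisons, with an x axis of its own in each panel. Squares are the brightest probe set of a gene, circles the others, bars 95% intervals and filled marks an adjusted p under 0.05 in the fit of all probe sets; in GFPKO minus Treg the Itgb3 probe sets stand apart at 0.90 and -0.09, while both Itgae probe sets lie far below 0 at -2.92 and -3.21.

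Itga6, a laminin-binding alpha chain, read 10.78, 10.47 and 9.83 in GFPKO, against 10.34, 10.26, 10.21, 9.78 and 9.66 in Treg and 9.82, 9.87 and 9.90 in TN. The groups overlapped, with GFPKO replicate 3 among the TN arrays. No difference was called, with Treg minus TN at 0.18 (-0.25 to 0.61, adjusted p = 0.71), GFPKO minus TN at 0.49 (0.01 to 0.97, adjusted p = 0.29) and GFPKO minus Treg at 0.31 (-0.12 to 0.74, adjusted p = 0.4). Without GFPKO replicate 3 both comparisons of GFPKO were called, at 0.76 against TN (adjusted p = 0.027) and 0.57 against Treg (adjusted p = 0.042). Without GFPKO replicates 1 and 2 they were -0.04 and -0.22. The second probe set, 1422444_at, gave 0.18, 0.59 and 0.41 in the order of the comparisons above, none called.

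The chains of LFA-1 had the narrowest ranges of the 10 over the arrays, 0.33 for Itgb2 and 0.59 for Itgal. Itgal read 11.67, 11.59 and 11.84 in GFPKO, against 11.65, 11.71, 11.76, 11.66 and 11.62 in Treg and 11.25, 11.45 and 11.37 in TN. Every GFPKO and Treg array was above every TN array, but by little. Treg minus TN was 0.32 ± 0.11 SE (95% interval 0.09 to 0.56, adjusted p = 0.083) and GFPKO minus TN 0.35 ± 0.12 (0.09 to 0.61, adjusted p = 0.13), neither called, and GFPKO minus Treg was 0.02 (-0.21 to 0.26, adjusted p = 0.92). Both differences from TN were called with trended and robust moderation (adjusted p = 0.022 and 0.045), and Treg minus TN also with only those groups in the fit (adjusted p = 0.047) or with array weights (adjusted p = 0.02). Its second probe set, 1425367_at, gave 0.54, 0.23 and -0.31, none called.

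Itgb2, the beta chain of LFA-1, read 11.66, 11.69 and 11.95 in GFPKO, against 11.66, 11.71, 11.69, 11.72 and 11.70 in Treg and 11.62, 11.74 and 11.75 in TN. The groups overlapped, and GFPKO replicate 3 was the highest array. Treg minus TN was -0.01 (-0.24 to 0.23, adjusted p = 0.99), GFPKO minus TN was 0.06 (-0.20 to 0.33, adjusted p = 0.88) and GFPKO minus Treg was 0.07 (-0.16 to 0.30, adjusted p = 0.75). A 2-fold difference in either direction, 1 on the log2 scale, lies outside each of these intervals.

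Other cell types also express integrins, so their markers were read beside the chains. Itgb3 is abundant in platelets: of 8 measured megakaryocyte and platelet markers 0 were called in any comparison by limma, also at an unadjusted p under 0.05. Of these 8, 3 were above background in GFPKO, 4 in Treg and 3 in TN. Pf4, Ppbp, Gp5 and Gp6 were at or below background in all groups, and Gp1bb in GFPKO and TN. The summed linear signal of the 8 was 181 to 216 in GFPKO, 195 to 237 in Treg and 193 to 210 in TN. Itgae, Itgb8 and Itgav occur in dendritic cells: of 17 measured myeloid and dendritic cell markers 1 was higher and 7 lower in Treg than in TN, 0 and 6 in GFPKO against TN, and 0 and 0 in GFPKO against Treg (1 and 3 at an unadjusted p under 0.05). Their summed signal was 908 to 1466 in GFPKO, 1167 to 1883 in Treg and 1391 to 1780 in TN, and 8, 8 and 14 of the 17 were above background. Itgam, Cd14 and Xcr1 were at or below background in all groups. The part of these cells in the differences was not tested. Itgae also marks CD8 T cells, whose 2 markers summed to 141 to 191 in GFPKO, 164 to 202 in Treg and 198 to 236 in TN. Of these 2 genes 0 were called in Treg minus TN (1 at an unadjusted p under 0.05), 1 was lower in GFPKO than in TN and 0 were called in GFPKO minus Treg (0 unadjusted), by limma, and their part was not tested. Of 5 naive T cell markers 3 were lower in Treg and 2 in GFPKO than in TN, and 3 were higher in GFPKO than in Treg. The summed signal of 6 NK cell markers was 84.1 to 100.2 in GFPKO and 80.7 to 90.4 in Treg, against 493 to 660 in TN. Of these 6, 1 was above background in GFPKO, 1 in Treg and 2 in TN. Ncr1, Klra8, Klre1 and Klrk1 were at or below it in all groups. By limma 0 were higher and 2 lower in Treg than in TN, 0 and 2 in GFPKO against TN, and 1 and 0 in GFPKO against Treg. For 7 B cell markers the sums were 123 to 170, 300.4 to 370 and 147 to 162. Of these 7, 3 were above background in GFPKO, 3 in Treg and 4 in TN, with Cd79a, Ms4a1 and Ebf1 at or below it in all. By limma 1 was higher and 2 lower in Treg than in TN, 1 and 3 in GFPKO against TN, and 0 and 2 in GFPKO against Treg. The part of NK and B cells was not tested.

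Of 16 other integrin chains 14 were measured, and 6 were above background in at least 1 group. By limma 0 of the 14 were called higher in Treg minus TN, GFPKO minus TN or GFPKO minus Treg (1, 0 and 0 at an unadjusted p under 0.05), and 2, 1 and 1 were called lower. In Treg minus TN 1 was called higher without Treg replicate 1, GFPKO replicate 1 or GFPKO replicate 3. Itgax (CD11c), a dendritic cell chain, averaged 3.28 ± 0.06 in GFPKO, 3.64 ± 0.23 in Treg and 4.51 ± 0.34 in TN (SD). It was at least 1.43-fold lower than TN in Treg (adjusted p = 0.0017) and in GFPKO (adjusted p = 0.00046), with the lower group at the background level. Itgb5, a partner of Itgav, averaged 6.71 ± 0.07 in Treg and 7.24 ± 0.04 in TN (-0.53 ± 0.11 SE, adjusted p = 0.005), but its probe set with the largest variance gave 0.43 and the mean of its probe sets 0.16, neither called. Itga3, a laminin-binding chain, averaged 4.68 ± 0.19 in GFPKO and 5.16 ± 0.17 in Treg (-0.48 ± 0.14 SE, adjusted p = 0.046), and this call was lost on leaving out TN replicate 2, any of Treg replicates 2 to 5, or GFPKO replicate 1 or 2 (adjusted p between 0.066 and 0.17). Itga2b, Itga7 and Itga9 were above background and not called in any comparison. The median difference of the 14 chains was 0.06, -0.04 and -0.08.

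The cytoplasmic proteins that switch integrins on or carry their signal were read next. Of 39 measured activation and adaptor genes 3 were higher and 4 lower in Treg than in TN, 0 higher (3 at an unadjusted p under 0.05) and 1 lower in GFPKO than in TN, and 6 higher and 4 lower in GFPKO than in Treg. Their medians were 0.00, 0.01 and 0.06. Actn1 (alpha-actinin, which ties beta chains to actin) averaged 10.75 ± 0.08 in GFPKO, 10.03 ± 0.12 in Treg and 11.40 ± 0.02 in TN (SD), and was lower than TN in Treg (-1.36 ± 0.11 SE, adjusted p = 4.9e-07) and in GFPKO (-0.65 ± 0.12, adjusted p = 0.0046). Rasgrp2 (CalDAG-GEFI, the exchange factor of the integrin-activating GTPase Rap1) averaged 9.22 ± 0.43 in GFPKO, 7.92 ± 0.07 in Treg and 8.77 ± 0.18 in TN. It was lower in Treg than in TN (-0.85 ± 0.16, adjusted p = 0.0023) and higher in GFPKO than in Treg (1.31 ± 0.16, adjusted p = 0.00011).

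Tns1, Dok1 and Lpxn were higher in Treg than in TN, and Apbb1ip and Lims1 were higher in GFPKO than in Treg. Tns1 (tensin, an adhesion-site protein) averaged 6.17 ± 0.18 in GFPKO, 7.17 ± 0.30 in Treg and 6.04 ± 0.19 in TN (SD), higher in Treg than in TN (1.12 ± 0.17 SE, adjusted p = 0.00024) and lower in GFPKO than in Treg (-1.0 ± 0.17, adjusted p = 0.0013). Dok1, an adaptor that competes with talin for beta chain tails, was higher in Treg than in TN (0.91 ± 0.17, adjusted p = 0.0018) and lower in GFPKO than in Treg (-0.90 ± 0.17, adjusted p = 0.0034). Lpxn (leupaxin, a paxillin relative) was higher in Treg than in TN (1.23 ± 0.16, adjusted p = 5.8e-05). Apbb1ip (RIAM, the Rap1 effector that recruits talin) averaged 7.0 ± 0.41 in GFPKO and 5.86 ± 0.33 in Treg (1.14 ± 0.24, adjusted p = 0.0062). Lims1 (PINCH, a partner of the integrin-linked kinase) averaged 9.29 ± 0.63 in GFPKO and 8.42 ± 0.34 in Treg (0.87 ± 0.24, adjusted p = 0.034), a call lost on leaving out GFPKO replicate 1 (0.51) or any of Treg replicates 2 to 5. Without GFPKO replicates 1 and 2 the list held 3 higher and 8 lower genes in Treg minus TN, 2 and 1 in GFPKO minus TN, and 2 and 0 in GFPKO minus Treg. With this single GFPKO array the GFPKO minus Treg differences were -0.81 for Tns1, -0.38 for Dok1, 0.85 for Apbb1ip and 0.43 for Lims1, none called (adjusted p = 0.1, 0.27, 0.22 and 0.51). Of the GFPKO minus Treg counts, the higher one was 3 without GFPKO replicate 1 and 2 with the actin covariate, and the lower one was 9 without GFPKO replicate 3. In GFPKO minus TN the higher count was 2 without GFPKO replicate 1, and the lower one 2 without TN replicate 3 and 4 without GFPKO replicate 3. The lower count in Treg minus TN was 7 without GFPKO replicate 1. With the actin covariate Apbb1ip (0.85, adjusted p = 0.074) and Lims1 (0.57, adjusted p = 0.31) were not called.

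Of 19 measured ligand genes 11 were above background. There were 3 higher and 1 lower in Treg than in TN, 2 and 2 in GFPKO against TN, and 1 and 3 in GFPKO against Treg, with medians of 0.12, -0.04 and -0.15. Lamc1, a laminin chain, averaged 5.18 ± 0.34 in GFPKO, 6.05 ± 0.14 in Treg and 3.88 ± 0.47 in TN (SD), at least 4.15-fold higher in Treg (adjusted p = 1.2e-06) and at least 2.27-fold higher in GFPKO (adjusted p = 0.0014) than in TN. Icam1, the LFA-1 ligand, averaged 7.29 ± 0.54 in GFPKO, 8.55 ± 0.09 in Treg and 7.48 ± 0.34 in TN, higher in Treg than in TN (1.07 ± 0.20 SE, adjusted p = 0.002) and lower in GFPKO than in Treg (-1.27 ± 0.20, adjusted p = 0.00091). Icam2, another LFA-1 ligand, averaged 9.72 ± 0.31 in GFPKO, 9.77 ± 0.14 in Treg and 10.42 ± 0.07 in TN, lower than TN in Treg (-0.64 ± 0.14, adjusted p = 0.0066) and in GFPKO (-0.70 ± 0.16, adjusted p = 0.014). The second of these calls was lost without TN replicate 1 or 2 or GFPKO replicate 2 (adjusted p between 0.059 and 0.071). Tgfb3, a TGF-beta ligand whose latent form binds Itgav pairs, averaged 4.28 ± 0.33 in GFPKO, 3.24 ± 0.23 in Treg and 3.53 ± 0.11 in TN. It was at least 1.22-fold higher in GFPKO than in Treg (adjusted p = 0.00073) and than in TN (adjusted p = 0.022), and the call against TN was lost without TN replicate 1 or 2 or GFPKO replicate 2 (adjusted p between 0.081 and 0.12). Lamc1 was lower in GFPKO than in Treg (-0.87 ± 0.19, adjusted p = 0.0094), a call lost without GFPKO replicate 2 (adjusted p = 0.064). Cdh1, the E-cadherin bound by Itgae, and Lamb2, a laminin chain, were among the called genes but at or below background in all groups, so no fold is given for them. The ligand counts in GFPKO minus TN were 1 higher and 0 lower without TN replicate 1 or 2, and 1 and 1 without GFPKO replicate 2. In GFPKO minus Treg the lower count was 1 without GFPKO replicate 2 and the higher one 2 without GFPKO replicate 3. With the actin covariate Icam2 (-0.41, adjusted p = 0.25) and Tgfb3 (0.63, adjusted p = 0.22) were not called against TN, nor Lamc1 (-0.78, adjusted p = 0.078) in GFPKO against Treg.

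**Figure D4:**
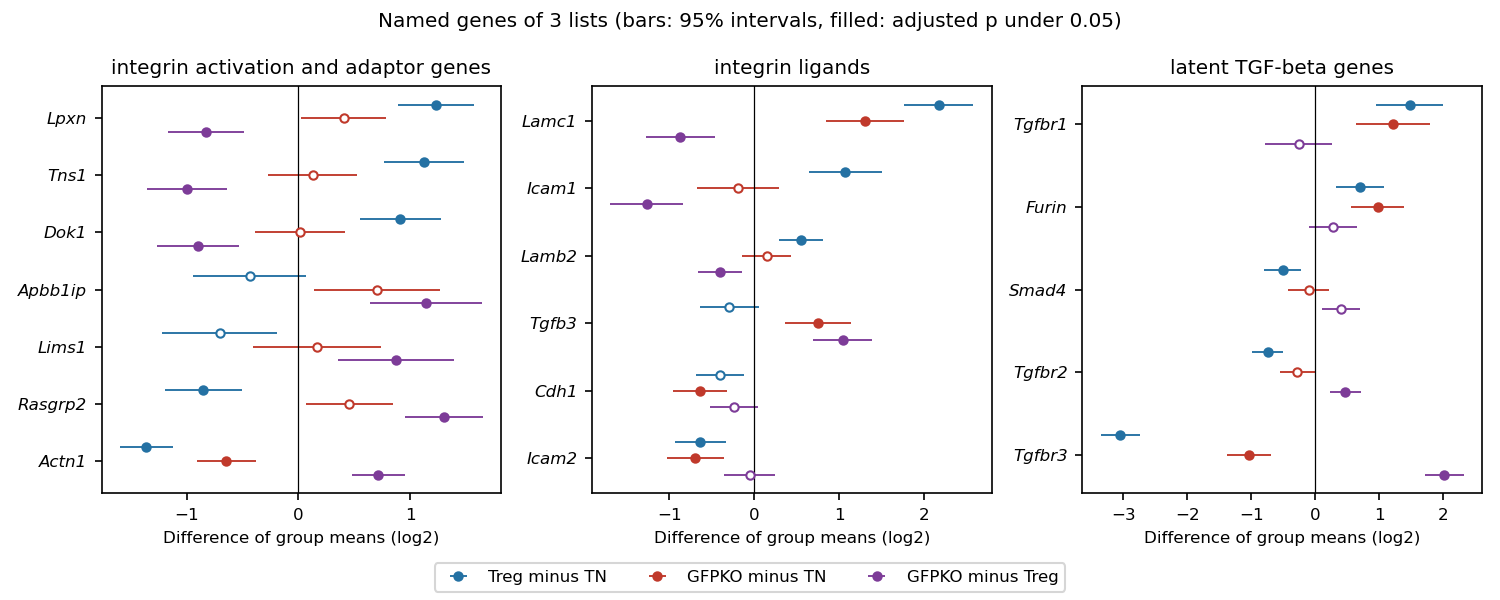
Difference of group means on the log2 scale for named genes of the activation and adaptor, ligand, and latent TGF-beta lists in the 3 comparisons. Points are limma estimates over 11 arrays, bars are 95% intervals and filled points have an adjusted p under 0.05; Tgfbr3 lies at -3.05 in Treg minus TN and Lamc1 at 2.17.

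The last list was of genes that present latent TGF-beta, on which the Itgav and Itgb8 pair acts, or that respond to TGF-beta. Of 14 measured, 2 were higher and 3 lower in Treg than in TN, 2 and 1 in GFPKO against TN, and 2 and 0 in GFPKO against Treg, with medians of 0.00, 0.04 and 0.23. Tgfbr3, the betaglycan co-receptor, averaged 9.07 ± 0.22 in GFPKO, 7.06 ± 0.22 in Treg and 10.11 ± 0.03 in TN (SD). It was lower than TN in Treg (-3.05 ± 0.14 SE, adjusted p = 1.3e-09) and in GFPKO (-1.03 ± 0.16, adjusted p = 0.00075), and higher in GFPKO than in Treg (2.01 ± 0.14, adjusted p = 4.5e-07). Tgfbr1, the type I receptor, averaged 9.14 ± 0.65 in GFPKO, 9.40 ± 0.33 in Treg and 7.93 ± 0.18 in TN, and was higher than TN in Treg (1.47 ± 0.24, adjusted p = 0.00065) and in GFPKO (1.21 ± 0.27, adjusted p = 0.014). The call in GFPKO was lost without TN replicate 2 or 3 (adjusted p = 0.065 and 0.052), with the mean of its probe sets (0.48, adjusted p = 0.16) and with the actin covariate (0.90, adjusted p = 0.22). Tgfbr2, the type II receptor, averaged 11.61 ± 0.05 in GFPKO, 11.15 ± 0.14 in Treg and 11.89 ± 0.03 in TN, lower in Treg than in TN (-0.75 ± 0.11, adjusted p = 0.00029) and higher in GFPKO than in Treg (0.47 ± 0.11, adjusted p = 0.017). The last call was lost without GFPKO replicate 1 (adjusted p = 0.057), with the mean of its probe sets (0.17, adjusted p = 0.32) and with the actin covariate (0.44, adjusted p = 0.09). Furin, the protease that cleaves the TGF-beta precursor, averaged 7.72 ± 0.46 in GFPKO, 7.45 ± 0.19 in Treg and 6.75 ± 0.10 in TN. It was higher than TN in GFPKO (0.98 ± 0.20, adjusted p = 0.0062) and in Treg (0.70 ± 0.17, adjusted p = 0.016), the call in Treg being lost without TN replicate 1 or 3 (adjusted p = 0.08 and 0.069). Smad4, the shared signal carrier of the receptors, was lower in Treg than in TN (-0.51 ± 0.14, adjusted p = 0.025), a call lost without any 1 TN array or Treg replicate 3, 4 or 5 (adjusted p between 0.053 and 0.09). Tgfb1, the ligand itself, averaged 7.07 ± 0.50 in GFPKO, 7.33 ± 0.28 in Treg and 6.79 ± 0.39 in TN and was not called in any comparison. The higher count in GFPKO minus Treg was 4 without Treg replicate 1 or GFPKO replicate 3, 1 without GFPKO replicate 1, 1 with the actin covariate, 5 with centred arrays and 8 with array weights. In GFPKO minus TN the higher count was 1 without TN replicate 2 or 3 and the lower one 2 without GFPKO replicate 3, and in Treg minus TN the higher count was 1 without TN replicate 1 or 3.

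For the 3 chains with the largest differences, the genes with the most similar pattern over the 11 arrays were sought among 11757 other genes above background, by Pearson's r as a description over arrays that share their groups. For Itgae these were Ncmap (r = 0.993), Lrig1 (0.992) and Cd83 (0.988). Cd83 averaged 7.83 in GFPKO, 10.43 in Treg and 6.33 in TN. For Itgb8 they were Matn2 (0.986), AW112010 (0.985) and Rcn1 (0.981), with Matn2 at 3.41 in GFPKO, 5.57 in Treg and 3.01 in TN. For Itgb3 they were Gucd1 (0.978), Slc12a7 (0.977) and Gtf2i (0.973), with Gucd1 at 8.61 in GFPKO, 7.82 in Treg and 9.15 in TN.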

How the data were processed

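RNA of 11 samples was hybridised to 1 Affymetrix array each. Per the submitters' processing notes the authors made the values with RMA (version not stated), a method of background correction, quantile normalisation and summary to 1 value per probe set. These deposited values hold log2 units, as read from their range of 1.54 to 14.65. Their median per array was 4.07 to 4.16, and no pair of arrays was identical.

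Of 45101 probe sets, 64 controls, 932 with several symbols and 9160 not listed in the gene table were left out. The remaining 34945 gave 18193 genes, each by its probe set with the highest mean. With limma 3.58.1 in R 4.3.3, 1 mean per group was fitted over all 11 arrays with eBayes and no covariates. Tests were two-sided, Benjamini-Hochberg adjusted over all genes within a comparison and called under 0.05. The fit was tested on simulated data.

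Where a group's mean was at or below 3.99, folds are against that level. Intervals are 95%. All 10 chains are named, as are the other chains above background and, from each of 3 lists, up to 5 called genes with the largest change per comparison. Tgfb1 was named after its values were seen. The members, lists, background level and tests were chosen with earlier results of these data known. RefSeq tables gave names and promoters.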

Additional observations from a re-analysis of the deposited data

How the results depend on the processing

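The calls of Itgae in all 3 comparisons, of Itgb8 in Treg minus TN and GFPKO minus Treg, of Itgb3 in Treg minus TN and of Itgb1 in GFPKO minus Treg held under every setting tried on the brightest probe set. In GFPKO minus Treg 1 of the other Itgb1 probe sets above background, 1427771_x_at, was not called. Nor were the Itgb1 probe sets at or below background. The count of all called genes (Treg minus TN 1813, GFPKO minus TN 1029, GFPKO minus Treg 1716) was 3223, 5051 and 6756 with array weights; the cause was not tested. It was 562 for GFPKO minus TN when only those groups were fitted, 570 (GFPKO minus TN) and 811 (GFPKO minus Treg) with the actin covariate, and 635 for GFPKO minus Treg without GFPKO replicates 1 and 2. Leaving out 1 array gave 1360 to 2398, 644 (without TN replicate 1) to 1868 (without GFPKO replicate 3) and 1134 (without GFPKO replicate 1) to 3421 (without GFPKO replicate 3) in the 3 comparisons. Samples with the same replicate number deviated from their group means with r over 0.1 in 3 of 9 pairs, all 3 of replicate 1 (0.16 to 0.51), and between -0.22 and 0.068 in replicates 2 and 3, so the numbers were not taken as pairs. With the replicate block the counts were 1436, 1028 and 1049, Itgav was called in Treg minus TN (0.82, adjusted p = 0.0085) and Itgb8 in GFPKO minus TN (0.64, adjusted p = 0.03); no other of the 10 chains changed its call under the block, which also ended the calls of Itga3, Lamb2, Lims1 and Tgfbr2 in GFPKO minus Treg and of Furin and Smad4 in Treg minus TN. The chains higher in Treg than in TN numbered 5 with only those groups, with array weights, or without GFPKO replicates 1 and 2, and 2 to 4 on leaving out 1 array. The chains higher in GFPKO than in TN numbered 1 with only those groups, the mean of probe sets, the actin covariate, or without GFPKO replicates 1 and 2, and 1 to 4 on leaving out 1 array. The chains lower there numbered 1 with array weights, centred arrays or the mean of probe sets, and 0 to 1 on leaving out 1 array. The chains higher in GFPKO than in Treg numbered 1 with the mean of probe sets, the actin covariate, or without GFPKO replicates 1 and 2.

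Reversals of sign, all of differences not called under the alternative, were these. Without GFPKO replicates 1 and 2 together, Itga6 gave -0.037 against TN and -0.22 against Treg, Itgav gave -0.15 against Treg and Itgb7 0.32 against TN. Itgal in GFPKO minus Treg gave -0.084 with array weights, -0.14 for the mean of probe sets, -0.31 for the probe set with the largest variance (1425367_at) and -0.045 without GFPKO replicate 3, within a range of -0.045 to 0.080 on leaving out 1 array. Other probe sets reversed Itga4 in Treg minus TN (0.29), Itgav (-0.037) and Itgb3 (-0.086) in GFPKO minus Treg, Itga3 in GFPKO minus Treg (0.089) and Itgb5 in Treg minus TN (0.16 for the mean, 0.43 for the largest variance). Itgb2 in Treg minus TN gave 0.0034 with repeated quantile normalisation, 0.017 with the actin covariate and -0.047 to 0.017 on leaving out 1 array; leaving out 1 array gave -0.027 to 0.12 in GFPKO minus TN and -0.020 to 0.12 in GFPKO minus Treg. Itgb7 in GFPKO minus TN gave 0.00051 with repeated quantile normalisation and 0.15 with the actin covariate, and in GFPKO minus Treg -0.081 with array weights. On leaving out 1 array it gave -0.22 to 0.089 in GFPKO minus TN, -0.17 to 0.14 in GFPKO minus Treg and -0.15 to 0.042 in Treg minus TN. Calls lost on leaving out single arrays also included Furin and Smad4 in Treg minus TN, Icam2, Tgfb3 and Tgfbr1 in GFPKO minus TN, and Lamc1, Lims1 and Tgfbr2 in GFPKO minus Treg.

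The other probe sets and the removal of GFPKO replicates 1 and 2 together were settings chosen after seeing the data, and the second leaves 1 GFPKO array, whose spread is assumed to be that of the other groups. The number of arrays limits the precision, and probe sets at background bound a change from 1 side only.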
